A study of Mus musculus with 10 samples.

Results

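The transcription factor NF-kappaB and its feedback circuit were followed through 10 genes. These were the subunits Nfkb1, Nfkb2, Rela and Relb, the cytoplasmic inhibitor Nfkbia, the nuclear inhibitor-like proteins Nfkbiz and Bcl3, the feedback enzymes Tnfaip3 and Birc3, and the ligand Tnf. They were chosen by name, as NF-kappaB subunits, inhibitors and early targets, from gene probes whose accessions matched these symbols through RefSeq, and they are 10 of the 14508 genes tested. Each had 1 probe, and that probe was above background on all 10 arrays, so no member was lost to the filter on dim probes.

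The samples came from 3 CYP1A-humanized mice, in which human CYP1A genes replace the mouse genes, kept on AIN93M diet. All 3 animals had been given 2 gavage doses of PhIP, a heterocyclic amine of cooked meat, at 100 mg/kg when 6 weeks old, followed by 1 week of 1.5% dextran sulfate sodium (DSS), a colitis-inducing agent, in the drinking water and 8 weeks without treatment. The tumor group was 7 colon tumors, labelled tubular adenomas with a dominant active mutant of Ctnnb1, the gene of beta-catenin, and it was set against 3 samples of adjacent normal colon epithelium, labelled wild type for Ctnnb1, all at 16 weeks of age. Mouse 41 (male) and mouse 42 (female) gave 3 tumors and 1 normal sample each, and mouse 43 (male) gave 1 of each. The normal samples therefore came from animals that carried the same humanized genes and had received the same PhIP and DSS, and the 7 tumors share 3 animals. A p-value here measures the spread between these samples and not between 7 animals.

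NF-kappaB proteins act as dimers of Rel-family subunits. In resting cells inhibitors of the IkB family hold most dimers in the cytoplasm. Ligands such as tumor necrosis factor, interleukin-1 and bacterial products activate the IkB kinase complex, which marks the inhibitor for degradation and frees the dimer to enter the nucleus and bind kappaB sites in DNA. Among its target genes are its own inhibitors and feedback enzymes, which end the response, as well as chemokines, adhesion molecules and survival genes. In the colon the pathway is known for its part in colitis, in the epithelium as well as in myeloid cells. Much of its control lies in protein location and stability, which an RNA array does not measure.

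Promoter sequences of 7 members were held in RefSeq's GRCm38.p6 table. The 250 bases before the annotated start are printed for 3 members that rose in tumors (Rela, Bcl3 and Tnf) and for the inhibitors Nfkbia and Tnfaip3, which are textbook NF-kappaB targets and did not pass the test, so that the letters can be read beside the values that follow. Each reads 5′ to 3′ on the strand of the gene. Capitals mark matches to the kappaB consensus, searched on both strands with overlapping matches counted.
Rela: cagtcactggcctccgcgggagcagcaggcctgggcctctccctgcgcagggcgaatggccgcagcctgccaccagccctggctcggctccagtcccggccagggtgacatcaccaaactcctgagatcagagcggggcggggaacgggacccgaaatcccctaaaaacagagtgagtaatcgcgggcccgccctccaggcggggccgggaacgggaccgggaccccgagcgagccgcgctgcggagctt
Bcl3: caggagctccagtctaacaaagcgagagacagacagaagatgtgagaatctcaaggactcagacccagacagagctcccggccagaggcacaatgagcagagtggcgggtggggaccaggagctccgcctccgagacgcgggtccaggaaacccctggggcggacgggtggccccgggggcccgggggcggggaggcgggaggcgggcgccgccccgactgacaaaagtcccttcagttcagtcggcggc
Tnf: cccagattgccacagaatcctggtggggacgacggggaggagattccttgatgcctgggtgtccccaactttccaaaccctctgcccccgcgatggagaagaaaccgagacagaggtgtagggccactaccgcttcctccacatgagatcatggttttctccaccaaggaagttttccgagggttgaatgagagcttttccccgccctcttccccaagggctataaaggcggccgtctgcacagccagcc
Nfkbia: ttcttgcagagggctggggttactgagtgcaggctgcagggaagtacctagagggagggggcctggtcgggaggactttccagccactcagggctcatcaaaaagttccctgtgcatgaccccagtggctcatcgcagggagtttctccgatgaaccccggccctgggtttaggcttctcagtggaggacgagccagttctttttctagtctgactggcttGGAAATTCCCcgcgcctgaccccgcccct
Tnfaip3, second entry: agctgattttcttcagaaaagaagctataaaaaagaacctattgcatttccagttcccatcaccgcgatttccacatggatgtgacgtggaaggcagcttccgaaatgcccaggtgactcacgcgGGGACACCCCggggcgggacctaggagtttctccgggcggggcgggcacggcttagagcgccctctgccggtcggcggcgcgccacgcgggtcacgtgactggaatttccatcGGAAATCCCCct
The Rela window is chr19:5637291-5637540 (plus strand) and the Bcl3 window chr7:19822756-19823005 (minus strand). The Tnf window is chr17:35202008-35202257, that of Nfkbia chr12:55492648-55492897 and the second Tnfaip3 entry chr10:19015411-19015660, all 3 on the minus strand. The Nfkbia window held 1 match, GGAAATTCCC, 29 bases before the start. The second Tnfaip3 entry held 2 matches, 125 and 12 bases before the start. No match was found in the windows of Rela, Bcl3, Tnf or Birc3 or in the first entry of Tnfaip3, whereas all 3 entries of Nfkb2 held at least 1. Over all 32851 windows of this length in the table, 7.25% held the consensus. These matches describe the letters of short windows, and binding was not measured.

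Spot intensities were background corrected, normalised between arrays and put on a log2 scale, so that a difference of 1 is a doubling of the signal. Levels are compared for the same probe across samples and never between probes. Tumor and normal samples were compared with limma, with the mouse as a block, and a gene was called where its p-value, adjusted over all 14508 genes by the Benjamini-Hochberg method, was under 0.05. Of all genes tested, 49.6% passed in either direction. Between 57.7% and 66.7% of gene probes were above background on an array, and with 10 arrays the precision of every value is limited by their number.

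Of the 10 members, 4 were called higher in tumors (Rela, Bcl3, Tnf and Nfkb1) and 1 lower (Birc3), while the other 5 did not pass. Over all genes tested, 25.9% were called higher and 23.8% lower. All 7 tumors lay above all 3 normal samples for the same 4 members, against 21.4% of all genes, and for the other 6 the groups overlapped. No member had all tumors below all normal samples, against 20% of all genes. For 5 members every tumor lay above the normal sample of its own mouse, against 27% of all genes; the fifth was Nfkbia, which was not called. The median difference of the members was 0.18 on the log2 scale, beside 0.008 over all genes. With 10 members, these counts were not tested against the background.

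**Figure D1:**
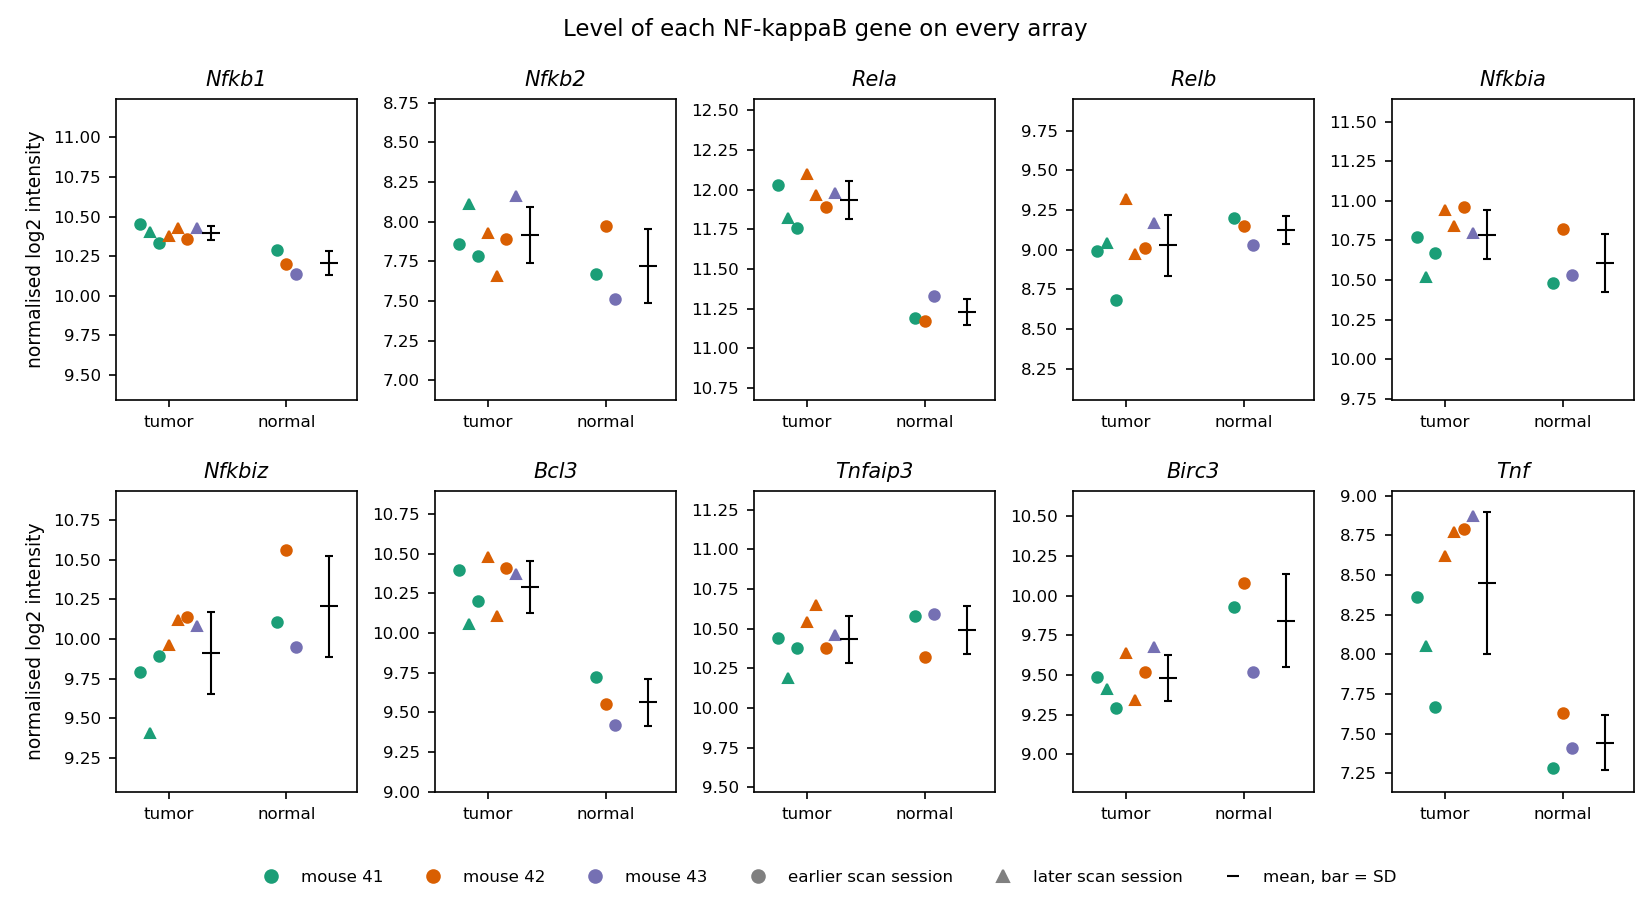
Normalised log2 intensity of each of the 10 genes (vertical axis, one panel a gene, all panels with the same span) in the 7 tumors (left) and the 3 normal samples (right), coloured by mouse, with triangles for the later scan session and the mean and SD of each group as bars. Rela, Bcl3, Tnf and Nfkb1 show tumors and normal samples apart, with Rela tumors at 11.76 to 12.10 and Rela normal samples at 11.17 to 11.33, and the other 6 panels show overlap.

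Among the subunits, Rela, which encodes the main transactivating partner of the canonical dimer, was clearly higher in tumors. Its log2 level was 12.03, 11.82 and 11.76 in the tumors of mouse 41, 12.10, 11.97 and 11.89 in those of mouse 42 and 11.98 in the 1 tumor from mouse 43, against 11.19, 11.17 and 11.33 in the normal samples of mice 41, 42 and 43. The lowest tumor, tumor 3 of mouse 41, still lay above the highest normal sample, that of mouse 43. Rela averaged 11.94 ± 0.12 in tumors (SD, n = 7) and 11.23 ± 0.08 in normal samples (SD, n = 3), a 1.65-fold rise (log2 difference 0.72 ± 0.09, SE, 95% confidence interval 0.53 to 0.92, limma adjusted p = 0.000203). The difference was of like size in each animal, at 0.68 in mouse 41, 0.81 in mouse 42 and 0.65 in mouse 43. It passed under all 29 alternative settings that were run, with differences between 0.67 and 0.81. Some of these settings are the same fit, and others give the same difference for a gene with 1 probe. Such tallies, here and below, are therefore not counts of separate checks.

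Nfkb1, the precursor of the DNA-binding partner of Rela, rose by a small amount, and the call sat at the threshold. Its log2 levels ran from 10.33 through a median of 10.40 to 10.45 in tumors, against 10.29, 10.20 and 10.14 in the normal samples of mice 41, 42 and 43. The tumors were tightly grouped, and the lowest tumor exceeded the highest normal sample by less than the range of the normal samples. The rise was 1.14-fold (log2 difference 0.19 ± 0.07, limma adjusted p = 0.0495). It passed in 7 of 29 alternatives, and without any 1 array it passed only when tumor 3 of mouse 41 was left out; without the other arrays the difference was 0.15 to 0.23 with adjusted p between 0.0608 and 0.164. Read from the spot median, which is described further on, the difference was -0.41 (adjusted p = 0.332).

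The alternative-pathway subunits did not pass. Nfkb2, the precursor that is processed in response to lymphotoxin-type signals, lay at 7.66 to 8.16 with a median of 7.89 in tumors, against 7.67, 7.97 and 7.51 in the normal samples of mice 41, 42 and 43 (log2 difference 0.20 ± 0.14, 95% confidence interval -0.12 to 0.52, limma adjusted p = 0.272). All 3 tumors of mouse 42 were below their own normal sample and all 3 of mouse 41 above theirs. The difference was 0.41 without the normal sample of mouse 42 and 0.047 without either array of mouse 43, and neither passed (adjusted p = 0.0626 and 0.799). Relb, the partner of processed Nfkb2, lay at 8.68 to 9.32 with a median of 9.01 in tumors, against 9.20, 9.15 and 9.03 in the normal samples of mice 41, 42 and 43 (log2 difference -0.09 ± 0.12, 95% confidence interval -0.37 to 0.18, limma adjusted p = 0.555). The intervals of both genes leave room for a change of either sign. For Relb the normal samples fell inside the range of the tumors.

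Nfkbia, the IkB-alpha inhibitor that is resynthesised after each wave of activation, stood a little above its own normal sample in every tumor, but the difference did not pass. Its levels ran from 10.52 through a median of 10.80 to 10.96 in tumors, against 10.48, 10.82 and 10.53 in the normal samples of mice 41, 42 and 43. The normal sample of mouse 42 was as high as the middle of the tumors, so the groups overlapped. The log2 difference was 0.17 ± 0.08 (95% confidence interval -0.01 to 0.35, limma adjusted p = 0.104), and within mice it was 0.18, 0.10 and 0.28 in mice 41, 42 and 43.

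The nuclear IkB-like proteins bind subunit homodimers on DNA, and their differences had opposite signs. Bcl3, a co-regulator of such homodimers, was higher in every tumor, with levels of 10.40, 10.06 and 10.20 in mouse 41, 10.48, 10.11 and 10.41 in mouse 42 and 10.37 in mouse 43, against 9.72, 9.55 and 9.42 in the normal samples of mice 41, 42 and 43. The groups did not overlap. Bcl3 averaged 10.29 ± 0.17 in tumors (SD, n = 7) and 9.56 ± 0.15 in normal samples (SD, n = 3), a 1.65-fold rise (log2 difference 0.72 ± 0.12, limma adjusted p = 0.00116). It passed in 27 of 29 alternatives. The exceptions were the spot median (0.12, adjusted p = 0.667) and the authors' deposited table (0.21, adjusted p = 0.656), so this rise rests on the spot mean.

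Nfkbiz, an inducible co-activator of secondary response genes, lay at 9.41 to 10.14 with a median of 9.96 in tumors, against 10.11, 10.56 and 9.95 in the normal samples of mice 41, 42 and 43. In 6 of 7 tumors it was below the own normal sample, and the exception was the tumor of mouse 43, which was 0.13 above. The log2 difference of -0.31 ± 0.14 did not pass (95% confidence interval -0.62 to 0.00, limma adjusted p = 0.0927). Without mouse 43, or without either of its arrays, which is the same fit, the difference was -0.45 and passed (adjusted p = 0.0243). Without the normal sample of mouse 42 it shrank to -0.20 (adjusted p = 0.41).

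The feedback enzymes did not share a direction that held in every animal. Birc3, a ubiquitin ligase of the tumor necrosis factor receptor complex and itself an NF-kappaB target, fell by 0.38 on the log2 scale (SE 0.13, limma adjusted p = 0.0417), which is 1.30-fold lower in tumors. Tumor levels were 9.49, 9.41 and 9.29 (mouse 41), 9.64, 9.34 and 9.52 (mouse 42) and 9.68 (mouse 43), against 9.93, 10.08 and 9.52 in the normal samples of mice 41, 42 and 43. The normal sample of mouse 43 lay within the tumors' range, so the groups overlapped, and the tumor of mouse 43 was 0.17 above it. The fall passed in 10 of 29 alternatives. Leaving out mouse 43 or either of its arrays made it larger (-0.56, adjusted p = 0.00328). Leaving out any 1 of the other 8 arrays ended the call, with differences from -0.39 to -0.25 and adjusted p from 0.0519 to 0.266; the smallest difference was without the normal sample of mouse 42.

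Tnfaip3, the ubiquitin-editing enzyme that shuts off signalling from the tumor necrosis factor receptor, was split by animal. Tumor levels were 10.44, 10.19 and 10.38 (mouse 41), 10.54, 10.65 and 10.38 (mouse 42) and 10.46 (mouse 43), against 10.58, 10.32 and 10.59 in the normal samples of mice 41, 42 and 43. All 3 tumors of mouse 42 lay above their own normal sample, and all 3 tumors of mouse 41 and the tumor of mouse 43 lay below theirs. Over all animals the log2 difference was -0.05 ± 0.11 (95% confidence interval -0.29 to 0.20, limma adjusted p = 0.752).

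**Figure D2:**
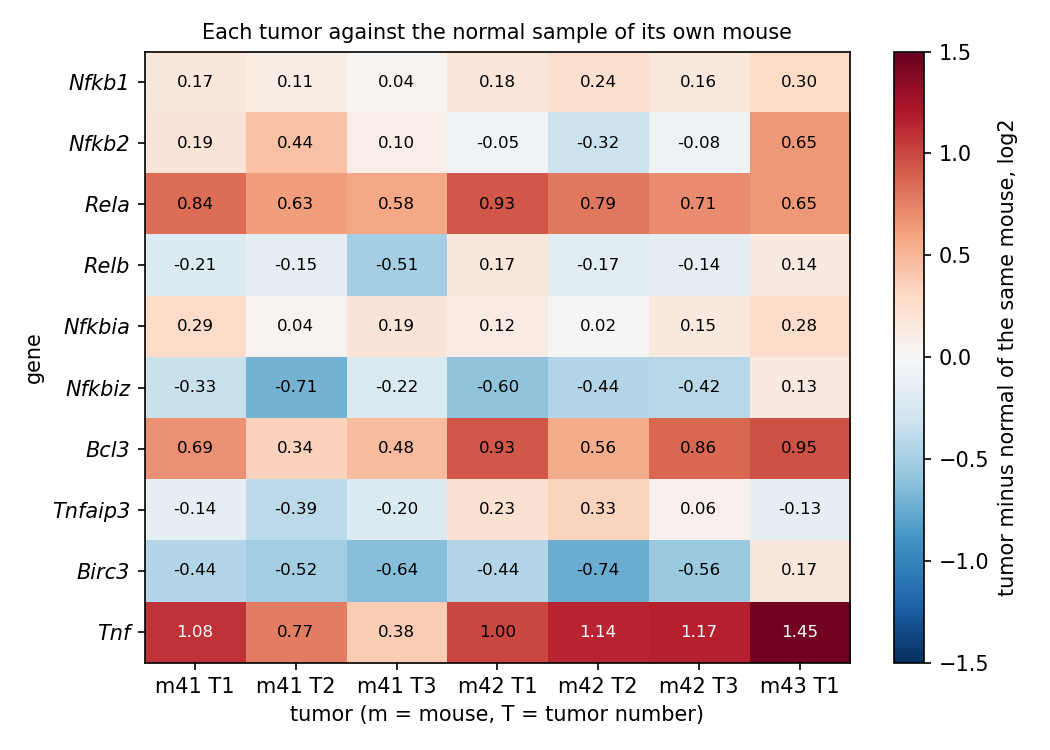
Log2 difference of each tumor from the normal sample of its own mouse, for the 10 genes (rows) and the 7 tumors (columns, m for mouse and T for tumor number), printed in each cell and coloured from blue (lower in the tumor) to red (higher). Rela, Bcl3, Tnf, Nfkb1 and Nfkbia are positive in all 7 columns, and Birc3 and Nfkbiz are negative in all but the tumor of mouse 43.

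Tnf, the cytokine that both triggers the pathway and is transcribed in response to it, had the largest difference of the 10. Its log2 levels in tumors were 8.36, 8.05 and 7.67 (mouse 41), 8.62, 8.77 and 8.79 (mouse 42) and 8.87 (mouse 43), against 7.28, 7.63 and 7.41 in the normal samples of mice 41, 42 and 43. Tumor 3 of mouse 41 was the lowest tumor and lay just above the highest normal sample, so the groups did not overlap. Tnf averaged 8.45 ± 0.45 in tumors (SD, n = 7) and 7.44 ± 0.17 in normal samples (SD, n = 3), a 2.08-fold rise (log2 difference 1.05 ± 0.16, 95% confidence interval 0.69 to 1.42, limma adjusted p = 0.00068). Among the 10 members its tumors were the most spread, with an SD of 0.09 within mouse 42 and 0.35 within mouse 41. Spot means of Tnf minus local background were low in the normal samples, at 86, 99 and 97 in mice 41, 42 and 43. Its fold and interval therefore depend on the offset, a constant added to each probe before normalisation. The log2 difference of 1.05 became 1.22 with offset 16 and 1.37 with no further background correction, and Tnf passed in both.

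The rise of Tnf passed in 26 of 29 alternatives. It missed the threshold with the spot median (0.26, adjusted p = 0.0686), in the authors' deposited table (0.52, adjusted p = 0.12) and within the earlier scan session (0.92, adjusted p = 0.0644). That session held 3 tumors and the 3 normal samples, and the normal sample of mouse 43 had no tumor beside it there. Macrophages and neutrophils make tumor necrosis factor, and their summed markers were also higher in tumors than in normal samples. The summed intensity of the macrophage markers was 11100 to 17300 in tumors, against 4260 to 5490 in normal samples, and that of the neutrophil markers was 8180 to 18000 in tumors, against 2340 to 6410 in normal samples. In tumor 3 of mouse 41, the lowest in Tnf, these sums were 11100 and 10100. In the tumor of mouse 43, the highest in Tnf, they were 11200 and 18000. Of the 8 macrophage markers tested 7 rose, as did 5 of the 6 neutrophil markers tested, beside 25.9% of all genes. Those 5 include a marker above background in no normal sample and another above background in 1 of 3. A macrophage marker that rose was above background in 2 of 3 normal samples. The tumors were needed to carry these markers past the filter, so their calls are no support for a rise. The part of macrophages and neutrophils in the difference of Tnf was not tested. In bulk tissue a change in the number of cells of a type and a change in RNA per cell cannot be told apart.

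Of the 5 calls, only that of Rela held for every way of summarising a spot. The scanner software gives the mean and the median of the pixels of a spot, and the main values use the mean. The mean over the median, each minus local background, was 1.03 to 2.31 for Rela over the 10 arrays and 0.83 to 1.30 for Relb. It was 4.04 to 20.55 for Bcl3, 4.34 to 9.49 for Nfkbiz, 2.97 to 6.44 for Nfkb2, 1.59 to 10.22 for Nfkb1 and 1.73 to 6.89 for Tnf. Over all probes above background on every array, the median of this ratio was 1.33 to 2.01 on an array. A ratio far above 1 means that some pixels of the spot were much brighter than the rest, as on all 10 arrays for Bcl3 and Nfkbiz and least for Relb. What made those pixels bright was not tested.

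With the spot median, Rela rose by 0.81 ± 0.16 (adjusted p = 0.0131) and was the only member called. The authors' deposited table, which holds scaled spot medians, gave Rela a difference of 0.72 ± 0.24 (limma adjusted p = 0.0459) and again called no other member. Across all genes tested the spot median called 9.34% higher and 9.55% lower, and the authors' deposited values called 12.1% higher and 10.6% lower. Birc3 kept its size in both readings, at -0.40 ± 0.31 and -0.43 ± 0.36, with wider errors. Nfkb1, Nfkb2 and Nfkbia had negative differences in both, and none of these passed.

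**Figure D3:**
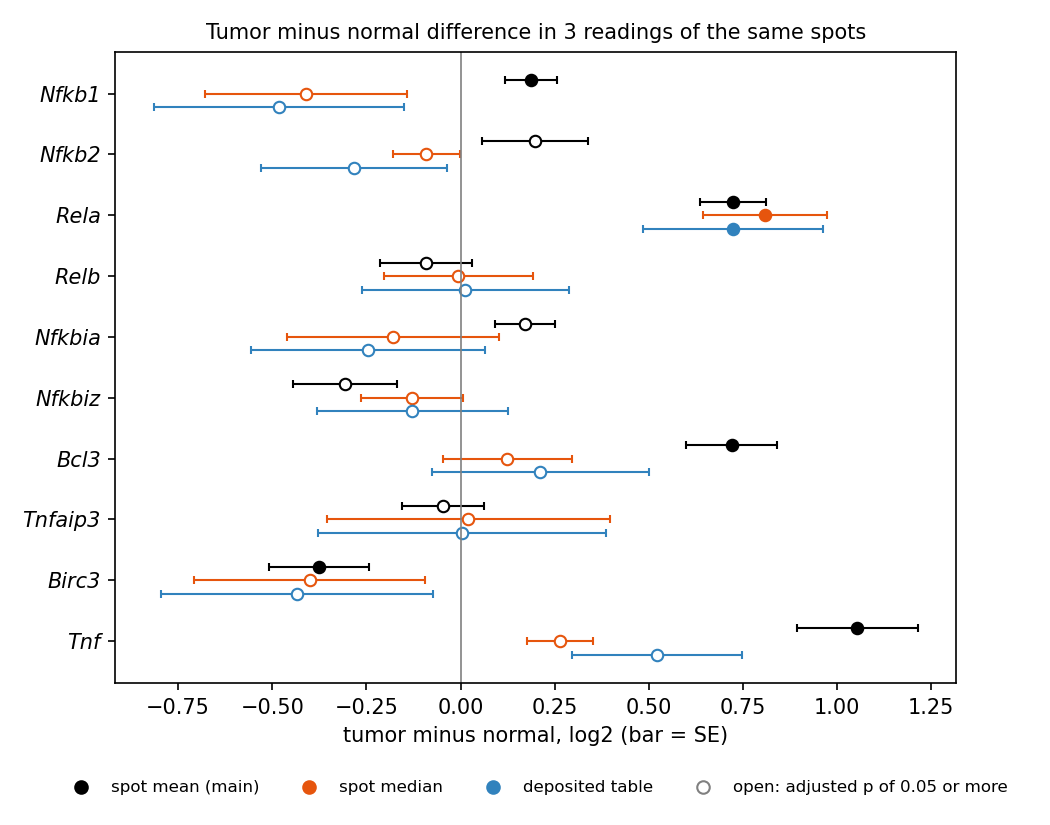
Tumor minus normal difference on the log2 scale (horizontal axis, bar = SE) of the 10 genes from the spot mean, the spot median and the authors' deposited table, with filled points for adjusted p under 0.05 and open points otherwise. Rela is filled and to the right in all 3 readings, at 0.72, 0.81 and 0.72, while Bcl3 and Tnf shrink to 0.12 and 0.26 with the spot median.

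Between the animals, no member was called in either comparison of mouse 42 with mouse 41. These animals differ in sex, and the effects of animal and of sex cannot be told apart. The tumors of mouse 42 had more Tnf signal than those of mouse 41, by 0.70 ± 0.17 on the log2 scale (limma adjusted p = 0.132), and 0.221% of all genes were called in that comparison. For Nfkbiz the difference was 0.38 ± 0.14 (adjusted p = 0.238) and for Nfkbia 0.26 ± 0.10 (adjusted p = 0.241). In the comparison of the tumor minus normal differences, where 0.4% of all genes were called, the largest value of a member was that of Tnfaip3, at 0.45 ± 0.22 (adjusted p = 0.731), and Nfkb2 stood at -0.39 ± 0.25 (adjusted p = 0.756). With 1 normal sample a mouse, the spread in these fits comes only from tumors of the same animal, pooled over both mice, and holds nothing of the spread between normal samples.

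The members did not rank the tumors in one order. Tumor 3 of mouse 41 was the lowest tumor for 5 members and tumor 2 of mouse 41 for 4. Tumor 1 of mouse 42 and the tumor of mouse 43 were each the highest for 3. The tumor of mouse 43 was above its own normal sample for 9 of 10 members, against 6 or 7 in the other tumors, and its normal sample was the lowest of the 3 for 6 members. The normal sample of mouse 42 was the highest for 5. Those arrays, the tumor of mouse 43 and the normal sample of mouse 42, also held high squamous epithelium markers, with summed intensities of 28600 for the one and 19000 for the other, against 1680 to 2290 in the other tumors and 1890 and 2560 in the other normal samples. Without both arrays and with no mouse term, Rela (0.67), Bcl3 (0.70) and Tnf (1.03) still passed, and Nfkb1 (0.18, adjusted p = 0.0999) and Birc3 (-0.27, adjusted p = 0.125) did not.

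The genes nearest to Rela in their pattern over the 10 arrays, by the root mean square difference of centred log2 levels, were Pcdhb21 (0.072), Hax1 (0.076) and Nol11 (0.084). Their own tumor minus normal differences were 0.68, 0.68 and 0.66, beside 0.72 for Rela.

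The rest of the pathway was read from 100 listed genes, chosen with earlier results of these data known, of which 90 were tested. Of these 33 rose, 18 fell and 39 did not pass, beside 25.9% higher and 23.8% lower over all genes. The same shares of all genes stand beside the counts of each list below, and no count was tested against them. The median difference of the 90 genes was 0.19 on the log2 scale, beside 0.008 over all genes. Of the lists, only ligands and other target genes had a median above 0.5, and no difference between lists was tested.

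**Figure D4:**
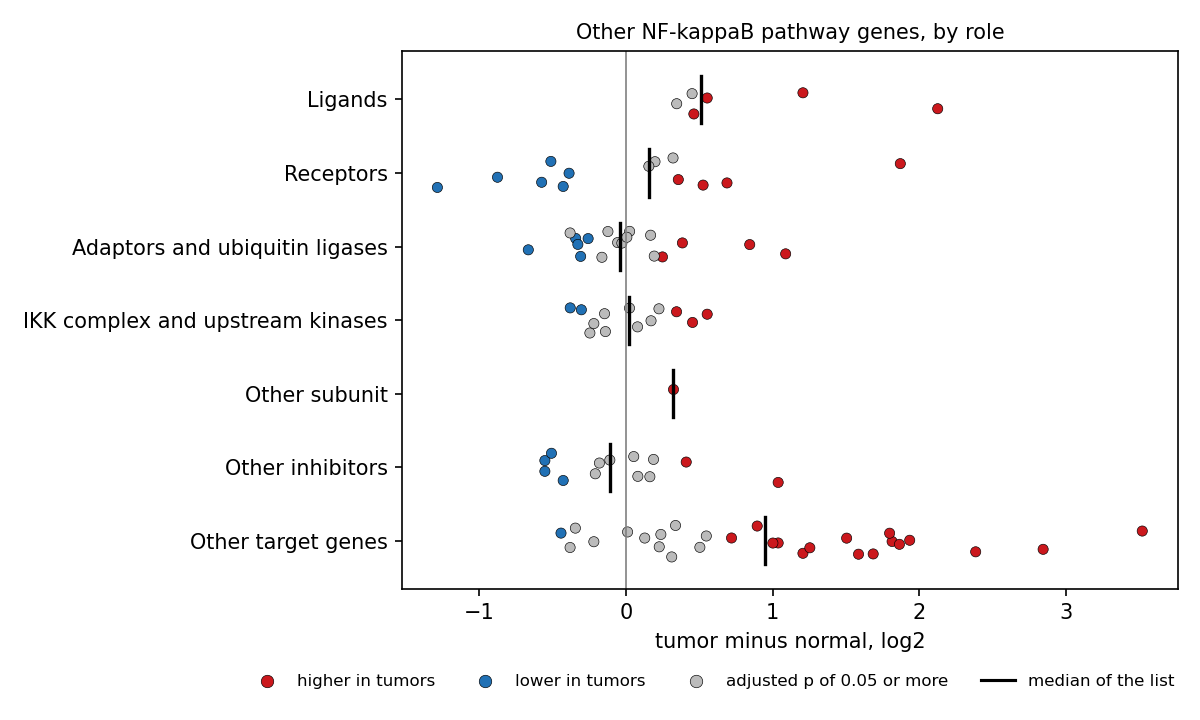
Tumor minus normal difference on the log2 scale (horizontal axis) of the other pathway genes tested, by role, with one point for each gene in each list that holds it. Points are red for genes called higher, blue for genes called lower and grey for the rest, with a line at the median of each list. The median is 0.95 for the other target genes and 0.51 for ligands, and between -0.11 and 0.32 for the remaining lists.

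Of 6 ligands tested 4 rose and none fell (median 0.51). Il1b, an interleukin-1 that activates the pathway, averaged 11.94 ± 0.29 in tumors (SD, n = 7) and 9.75 ± 0.82 in normal samples (SD, n = 3), a 4.36-fold rise (limma adjusted p = 0.000213). Il1a, the other interleukin-1 agonist, was 2.31-fold higher with overlapping groups (adjusted p = 0.0074), and it did not pass without mouse 41 (1.13, adjusted p = 0.0768). Tnfsf11, the RANK ligand, was 1.47-fold higher (adjusted p = 0.00245). Tnfsf14, a lymphotoxin-related ligand, was above background in all 7 tumors and in no normal sample, so only the tumors carried it past the filter on dim probes. Its call, counted among the 4, is therefore no support for a rise of the ligands (limma adjusted p = 0.0195). In tumors Tnfsf14 was at least 1.33-fold higher. That bound sets the mean of all 7 tumors against the higher, on each normal array, of the probe's own signal and the lowest signal above background. Tnfsf14 did not pass without the normal sample of mouse 41 (0.45), that of mouse 42 (0.50) or either array of mouse 43 (0.45). It passed in 17 of 28 alternatives, and the call was also lost at a smaller size with the mean of the kept probes (0.25), the scan session as a further block (0.27), the earlier session alone (0.31) and median scaling (0.34).

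Of 13 receptors 4 rose and 6 fell (median 0.16). A receptor counted among those 4 was above background in 2 of 3 normal samples, so the tumors were needed to carry it past the filter. Tnfrsf12a, the receptor of the TWEAK cytokine, averaged 11.83 ± 0.09 in tumors (SD, n = 7) and 9.94 ± 0.23 in normal samples (SD, n = 3), a 3.66-fold rise (limma adjusted p = 1.01e-05). Tnfrsf11a, the RANK receptor, averaged 7.61 ± 0.19 in tumors (SD, n = 7) and 8.88 ± 0.15 in normal samples (SD, n = 3), 2.44-fold lower (adjusted p = 4.76e-05). Thus the RANK ligand was higher and its receptor lower in the same tumors. The cytosolic sensors of bacterial cell wall fragments also fell, with Nod1 1.84-fold lower (adjusted p = 0.000297) and Nod2 1.35-fold lower (adjusted p = 0.00124). These 4 receptor genes passed under all 29 alternatives, but the size for Nod2 depends on the offset, with -0.43 on the log2 scale here, -0.61 with offset 16 and -0.88 with no further background correction.

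Of 18 adaptors and ubiquitin ligases 4 rose and 5 fell (median -0.04), shares near the 25.9% and 23.8% of all genes. Traf3, which restrains the alternative pathway, was 1.79-fold higher in tumors (limma adjusted p = 0.000207). Rnf31, the catalytic subunit of the linear ubiquitin ligase, was 1.59-fold lower (adjusted p = 0.0019). Irak2, a kinase of interleukin-1 and Toll-like receptor signalling, was 1.31-fold higher (adjusted p = 0.0142). It did not pass without the normal sample of mouse 41 (0.38, adjusted p = 0.0558) or that of mouse 42 (0.25, adjusted p = 0.138).

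Of the 13 genes of the IKK complex and its upstream kinases, 3 rose and 2 fell (median 0.02). Map3k8, a kinase bound to the Nfkb1 precursor, was 1.47-fold higher (limma adjusted p = 0.00322), the upstream kinase Map3k7 1.27-fold higher (adjusted p = 0.00928) and the catalytic subunit Ikbkb 1.37-fold higher (adjusted p = 0.00786). Ripk2, which relays Nod1 and Nod2 signals, was 1.24-fold lower (adjusted p = 0.00569). The call of Ikbkb ended without the normal sample of mouse 42 (0.28, adjusted p = 0.081), and its sign turned with the spot median (-0.05). Ripk2 also missed the threshold without that normal sample (-0.26, adjusted p = 0.0531), and its difference shrank with median scaling (-0.16, adjusted p = 0.128) and with the mean of the kept probes (-0.18, adjusted p = 0.0589). The remaining subunit, Rel, was 1.25-fold higher in tumors (adjusted p = 0.00789), with its probe above background in all 7 tumors and in 1 of 3 normal samples. The tumors were thus needed to carry Rel past the filter on dim probes. Its call, counted among the pathway genes that rose, is therefore no support for a rise. The size for Rel depends on the offset, since its log2 difference of 0.32 became 0.50 with offset 16 and 0.83 with no further background correction. From the spot median, Tnfsf11 (0.50), Irak2 (0.47), Rnf31 (-0.85), Map3k8 (0.22), Map3k7 (0.41), Ripk2 (-0.27) and Rel (0.18) kept their signs and missed the threshold (adjusted p between 0.0514 and 0.165). With no further background correction the differences of Tnfsf11 (1.00), Il1a (1.85), Map3k8 (0.94) and Ripk2 (-0.46) were more than 1.5 times as large and passed.

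Among 13 other inhibitors 2 rose and 4 fell (median -0.11). Nfkbie, the IkB-epsilon inhibitor and an NF-kappaB target, averaged 8.36 ± 0.12 in tumors (SD, n = 7) and 7.31 ± 0.13 in normal samples (SD, n = 3), a 2.05-fold rise (limma adjusted p = 7.13e-05). From the spot median its difference was 0.46 and missed the threshold (adjusted p = 0.165). Sigirr, a decoy-like receptor that dampens interleukin-1 signalling, and Tax1bp1, an adaptor of Tnfaip3, were each 1.47-fold lower (adjusted p = 0.00031 and 0.000626). Tnip1, which binds Tnfaip3, was 1.35-fold lower (adjusted p = 0.00203), but its sign turned with the spot median (0.05). Nfkbie thus rose where Nfkbia did not pass, and the difference between these genes was not tested.

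Of 28 other target genes, which include Nfkbie and an adaptor gene again, 16 rose and 1 fell, beside 25.9% higher and 23.8% lower over all genes. Their median difference of 0.95 was the highest among the lists. Lcn2, an iron-sequestering protein, averaged 12.02 ± 0.58 in tumors (SD, n = 7) and 8.63 ± 0.45 in normal samples (SD, n = 3). Its difference of 3.52 ± 0.29 on the log2 scale was larger than that of any other pathway gene tested (limma adjusted p = 3.72e-05). The adhesion molecule Icam1 was 2.84-fold higher (adjusted p = 3.96e-05), and the macrophage growth factor Csf1 3.00-fold higher (adjusted p = 2.51e-05). The acute-phase gene Saa3 had a log2 difference of 2.84 ± 0.23 (adjusted p = 3.35e-05). All 4 passed under all 29 alternatives, although the log2 difference of Csf1, 1.59 from the spot mean, was 0.86 from the spot median (adjusted p = 0.0443). The 1 target gene that fell was Irf1, an interferon-related transcription factor named here after its values were seen, at 1.36-fold lower (adjusted p = 0.006). Many of these genes are also made by myeloid and stromal cells, and the summed fibroblast markers were 16200 to 39300 in tumors, against 7110 to 9270 in normal samples. Their part in these differences was not tested.

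**Figure D5:**
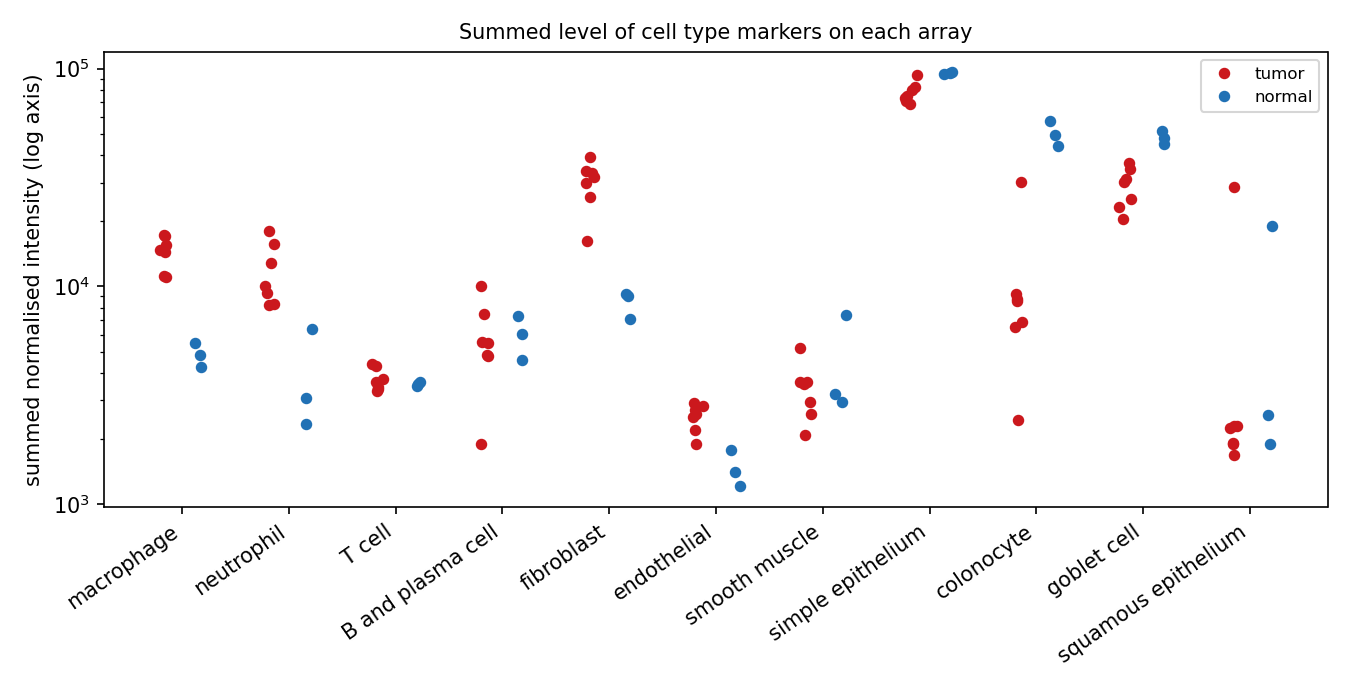
Summed normalised intensity of the tested markers of each cell type (vertical axis, log scale) on each of the 7 tumor arrays (red, left) and the 3 normal arrays (blue, right). Macrophage, neutrophil, fibroblast and endothelial sums lie higher in all tumors than in all normal samples. Colonocyte, goblet cell and simple epithelium sums lie lower in all tumors, and the squamous sum is high in 1 tumor and 1 normal sample.

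The labelled tissue was checked against its markers. The summed simple epithelium markers, such as keratins and Epcam, were 69100 to 93600 in tumors, against 94100 to 96300 in normal samples, and 5 of the 8 fell and 1 rose. The colonocyte sum was 2430 to 30200 in tumors, against 44000 to 57500 in normal samples, with tumor 3 of mouse 41, the tumor lowest in Tnf, at 30200. All 8 fibroblast markers and 7 of 8 endothelial markers rose, whereas 1 of 8 T cell markers rose and 2 of 6 B and plasma cell markers fell. Over all genes 25.9% rose and 23.8% fell. Normal samples labelled as epithelium also held signal of fibroblast and smooth muscle markers, with smooth muscle sums of 2070 to 5230 in tumors, against 2940 to 7420 in normal samples. These sums include a constant of 50 added to each probe before normalisation.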

How the data were processed

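RNA of 7 tumors and 3 adjacent normal samples was labelled by T7 amplification and read on 1-colour MEEBO oligonucleotide arrays, per the labels' protocols and the file headers (38880 spots, GenePix Pro 4.1.1.4). The scanner files deposited by the authors hold linear spot intensity, not normalised. The values the authors deposited for 19327 probes are also linear intensity and matched the spot median minus background, scaled by a single factor per array. No source used here names the genome build of the probe design.

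Of 34312 gene probes, 22933 matched a symbol through RefSeq, 5286 kept their accession as name, and 6093 without one were not used. Spot means were corrected with normexp (offset 50) on the local background and quantile normalised; 43 probes marked bad were left out. A probe was above background beyond the 99th percentile of 432 null spots on its array. A gene was tested (14508 in all) if a probe passed that limit on 3 or more arrays, and its brightest such probe stood for it. Tumor minus normal was fitted with limma (lmFit, eBayes) and a fixed term for the mouse, which the sample titles name; mouse 42 and mouse 41 were compared from means per mouse and tissue. Deviations of normals and mean tumors of a mouse had correlations of 0.105, -0.066 and -0.078.

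The members, gene lists and settings (spot mean, limit for above background) were chosen with earlier results of these data known, and the floor of 16 in the alternative without further correction was set after the intensities were seen. Named genes are the 10 members, up to 4 of each pathway list with the lowest p, up to 2 of each marker list with the highest level, and the 3 genes nearest to the member with the lowest p; 1 gene that the rule names is not reported here. Alternatives covered background correction, spot statistic, normalisation, filter, probe choice, block, scan session, threshold, and the removal of single arrays or animals. The later scan session held 4 tumors, marked redipped or rescanned, and no normal sample. On simulated data with 14508 genes, 100 were given a log2 change of 0.5 and 100 a change of 1. The fit recovered 39% of the former and 90% of the latter, and 7.19% of its calls were false. In the real data 49.6% of genes were called, so the limit on the unadjusted p-value was stricter in the simulation. These recovered shares therefore do not carry over to the reported comparison. R 4.3.3, limma 3.58.1, version 1.17.8 of data.table, Python 3.11.15, pandas 2.3.3 and matplotlib 3.10.9 were used.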

Additional observations from a re-analysis of the deposited data

Results flagged for a closer look

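Dixon's test at the 95% level was applied to the 7 tumors for 57 named genes and 11 marker sums, 68 in all, and marked 6; chance alone marks about 1 in 20. None of the 10 NF-kappaB members was among them. Nfkbie had a log2 level of 8.11 in tumor 3 of mouse 41, against 8.35 to 8.45 in the other tumors. In the same tumor the summed level of colonocyte markers was 30200, against 2430 to 9200 in the others. The tumor of mouse 43 stood apart in the summed level of squamous epithelium markers, at 28600 against 1680 to 2290. It also stood apart in Krt14, a basal keratin, at 14.17 against 9.60 to 10.49, in the collagen gene Col3a1, at 11.35 against 12.26 to 12.82, and in Jchain, a plasma cell gene, at 10.37 against 11.92 to 13.05.

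Of the named genes, 1 differed between animals by the test of the difference itself, and over all genes 58 did. The tumor minus normal difference of Krt14 differed by -3.54 on the log2 scale between mouse 42 and mouse 41, passing limma's test, and the normal sample of mouse 42 is one of the arrays with high squamous markers. Among the members, Tnfaip3 lay above the own normal sample in all 3 tumors of mouse 42 and below it in all 3 tumors of mouse 41, and Nfkb2 did the opposite; neither difference passed the test (adjusted p = 0.731 and 0.756).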

How the results depend on the processing

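The mouse as a block is a pairing by animal. With no replicate block, 4 members were higher and 1 lower, as in the reported fit, and the differences of Rela, Bcl3 and Tnf were 0.71, 0.73 and 1.00. The block changed no call of a member. Under the spot median 1355 genes were higher and 1386 lower, with 1 member higher and 0 lower and with 16 other pathway genes higher and 8 lower. The deposited table gave 1563 and 1369 genes, 1 and 0 members and 9 pathway genes lower. Within the earlier scan session these were 1633 and 1587 genes, 2 members higher, and 18 and 10 pathway genes. Without mouse 42 they were 2053 and 1938 genes, 0 members lower and 7 pathway genes lower. Median scaling shifted the median of all genes to 0.068 and gave 0 members lower and 10 pathway genes lower, and averaging tumors within mice gave the same 0 and 10. The count of members lower, which is Birc3 alone, was 0 with no further background correction, no filter on dim probes, the session as a further block, a threshold of 0.01, both arrays with high squamous genes left out, or mouse 41 left out, and 2 (with Nfkbiz) without mouse 43.

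Leaving out 1 array at a time gave 2574 to 3889 genes higher, 2410 to 3490 lower, 3 to 4 members higher, 0 to 2 lower, 26 to 37 pathway genes higher and 8 to 19 lower. For mouse 42 against mouse 41, the calls of the difference numbered 9 with the spot median and 30 to 61 with a tumor left out (58 as reported); those between tumors numbered 1 with the spot median, 146 with median scaling, 15 in the deposited table and 2 to 111 with a tumor left out (32 as reported). No member was called in any of these.

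Signs turned in the following cases, none past the threshold. With the spot median they were Nfkb1 (-0.41), Nfkb2 (-0.091), Nfkbia (-0.18), Tnfaip3 (0.021), Ikbkb (-0.047) and Tnip1 (0.046). In the deposited table they were Nfkb1 (-0.48), Nfkb2 (-0.28), Relb (0.012), Nfkbia (-0.25), Tnfaip3 (0.004), Ikbkb (-0.12) and Myh11 (0.011). Median scaling turned Relb (0.076) and Tnfaip3 (0.049), and leaving out mouse 41 or its normal sample turned them to 0.027 and 0.073. Marker genes turned too. Cd8b1 stood at 0.036 with the mean of kept probes, 0.02 within the earlier session and 0.007 without mouse 43 or either of its arrays. Cd3e stood at -0.21 with a session term and -0.12 on the earlier session's arrays. Krt14 stood at -0.49 within that session and -0.87 without mouse 43 or either of its arrays, and Mzb1 at 0.12 without these. Without both arrays with high squamous genes Jchain stood at 0.33 and Mzb1 at 0.34. Over single left-out arrays the ranges were -0.17 to 0.027 for Relb, -0.20 to 0.073 for Tnfaip3, -0.10 to 0.007 for Cd8b1, -0.61 to 0.12 for Mzb1 and -0.87 to 2.36 for Krt14. The cause of these turns was not tested. The number of arrays and the brightness of each spot over background limit every value.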

Other observations

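Marker genes with the highest signal in their lists gave the following values. The secreted goblet cell products Clca1 and Tff3 were 2.17-fold and 1.34-fold lower in tumors, below the own normal sample in all 7 (limma adjusted p = 0.005 and 0.0207). Krt19, a keratin of simple epithelium, was 1.29-fold lower (adjusted p = 0.0254), and its companion Krt8 had a log2 difference of -0.24 that did not pass (adjusted p = 0.0609). The endothelial adhesion molecule Pecam1 was 1.49-fold higher (adjusted p = 0.00153) and the collagen gene Col3a1 2.43-fold higher (adjusted p = 0.000637), each in 7 of 7 tumors. Col3a1 missed the threshold with the spot median (0.88, adjusted p = 0.209) and in the deposited table (0.89, adjusted p = 0.169). Krt19 (-0.43, adjusted p = 0.216) and Tff3 (-0.40, adjusted p = 0.45) also missed it with the spot median. The T cell gene Cd3e and the plasma cell genes Jchain and Mzb1 did not pass, with differences of 0.22, -0.40 and -0.21. Without the normal sample of mouse 42, Clca1 (-0.73, adjusted p = 0.0512) and Tff3 (-0.21, adjusted p = 0.205) missed the threshold, as did Krt19 without either array of mouse 43 (-0.23, adjusted p = 0.102).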
